A study of Mus musculus with 4 samples.

Results

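The 8 genes described here carry out or control hepatic glucose production and glycogen storage: Pck1, G6pc, Fbp1, Pcx, Pklr, Gys2, Pygl and Ppargc1a. They were chosen by name, and every SHP peak within 5 kb of the body of any of them was taken from each of the peak lists. This gave 8 of the 1508 peaks listed for vehicle and 11 of the 3155 peaks listed for FGF19, out of 22363 annotated protein-coding genes that were screened in the same way. All 8 genes were found in the GENCODE M1 annotation of the mouse genome build mm9, which is the build of the peaks.

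The study asked where SHP sits on liver chromatin and how this differs after a pulse of FGF19. Male wildtype C57BL/6 mice of 8 to 12 weeks were fasted for 12 h, given vehicle or 1 mg/kg FGF19 through the tail vein, and their livers were taken 2 h later. FGF19 is a gut hormone released after a meal, and vehicle is the injection without the hormone. Chromatin precipitated with SHP antibody from 3 mice was pooled, so each treatment has 1 SHP ChIP library and 1 input library, and no error between animals can be given. All mice of both groups were fasted and wildtype, and mice without SHP were not part of the peak data used here.

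SHP (NR0B2) is a nuclear receptor without a DNA-binding domain that reaches chromatin through other proteins and generally lowers transcription there. In the fasted liver, gluconeogenesis builds glucose from lactate, amino acids and glycerol, while glycogen is broken down to the same end, and feeding signals such as insulin and FGF19 oppose both. Pcx makes oxaloacetate from pyruvate, Pck1 turns it into phosphoenolpyruvate, Fbp1 releases fructose 6-phosphate, and G6pc releases free glucose. Pklr encodes liver pyruvate kinase, which runs the opposite way. Gys2 and Pygl encode the liver enzymes that build and degrade glycogen, and Ppargc1a encodes the coactivator PGC-1α, which raises gluconeogenic genes in fasting.

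The sequences under the peaks are shown first, because the report turns on where in each gene the peaks lie. All are copies of the mm9 reference, printed 5′ to 3′ on the strand of the gene, within 100 bp of a summit (the base with the highest pileup), and cut back at the edge of the peak or where an untranslated region began. Capitals mark an exact match to a motif that is named with the motif results, on either strand. Next come the peak at the start of the Pck1 coding sequence in exon 2 (chr2:172978890-172979019, plus strand), its exon 7 peak (chr2:172982429-172982629, plus strand) and the coding part of its strongest peak in exon 10 (chr2:172984000-172984144, plus strand), all around vehicle summits.
Pck1 exon 2: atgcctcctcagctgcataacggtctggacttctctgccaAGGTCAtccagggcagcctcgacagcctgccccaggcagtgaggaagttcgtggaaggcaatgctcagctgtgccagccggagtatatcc
Pck1 exon 7: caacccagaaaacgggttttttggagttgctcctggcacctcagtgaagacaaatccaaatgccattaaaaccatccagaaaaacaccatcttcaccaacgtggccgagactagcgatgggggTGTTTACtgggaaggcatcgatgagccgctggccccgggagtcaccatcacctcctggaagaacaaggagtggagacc
Pck1 exon 10: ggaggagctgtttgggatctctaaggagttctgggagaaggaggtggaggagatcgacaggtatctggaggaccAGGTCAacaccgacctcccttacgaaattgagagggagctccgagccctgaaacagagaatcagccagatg
Fbp1 and G6pc had peaks in the coding part of their last exons, at chr13:62966339-62966488 on the minus strand for the Fbp1 vehicle peak and at chr11:101237888-101238088 on the plus strand for the G6pc FGF19 peak.
Fbp1 exon 7: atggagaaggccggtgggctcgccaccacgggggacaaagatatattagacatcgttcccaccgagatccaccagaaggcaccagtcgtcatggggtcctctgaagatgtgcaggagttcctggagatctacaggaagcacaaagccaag
G6pc exon 5: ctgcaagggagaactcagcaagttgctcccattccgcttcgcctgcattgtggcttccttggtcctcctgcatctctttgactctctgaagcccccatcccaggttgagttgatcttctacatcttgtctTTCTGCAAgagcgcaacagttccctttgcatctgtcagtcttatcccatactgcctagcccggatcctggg
The following stretches lie at transcript starts. Those of Pcx are upstream of the gene around the FGF19 summit (chr19:4510062-4510262, plus strand) and in intron 1 around the vehicle summit (chr19:4510651-4510851, plus strand), and that of Pygl is the stretch just upstream of its main transcript (chr12:71328671-71328706, minus strand).
Pcx upstream: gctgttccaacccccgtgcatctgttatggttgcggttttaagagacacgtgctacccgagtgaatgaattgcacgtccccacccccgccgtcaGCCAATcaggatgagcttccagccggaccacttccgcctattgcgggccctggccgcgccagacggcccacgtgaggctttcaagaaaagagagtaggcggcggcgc
Pcx intron 1: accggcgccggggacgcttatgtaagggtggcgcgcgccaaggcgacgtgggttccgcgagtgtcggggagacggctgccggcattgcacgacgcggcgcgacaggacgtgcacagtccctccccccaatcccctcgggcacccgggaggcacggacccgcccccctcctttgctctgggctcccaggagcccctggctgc
Pygl upstream: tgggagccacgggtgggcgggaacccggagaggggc

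The authors' lists give each peak an interval, a summit, the pileup (extended ChIP tags stacked at that base), its enrichment over local input as a fold value, and the -log10 of p and q. The ChIP libraries held 15473647 tags with vehicle and 13444078 with FGF19 after duplicate removal, and their inputs 16164473 and 17367587. Tags were extended to 240 bp with vehicle and to 260 bp with FGF19. All peaks of a list had a median fold enrichment of 4.14 in the vehicle list and 4.05 in the FGF19 list, and the median pileup was 24 in both. As a check of the labelled tissue, 5 of 6 hepatocyte marker genes had SHP peaks in both lists, against 4.31% of all protein-coding genes. These were Alb, Apoa1, Ttr, Tat and Ahsg, but not Ttpa. Of 8 marker genes of other liver cells, 0 had a peak in either list, against 20.0% of all protein-coding genes. With 8 genes, that difference was not tested. The gene lists, markers included, were chosen with earlier results of these data known, which limits this check. A peak is not an expression level.

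Peaks were found at 3 of the 8 genes with vehicle and at 5 of the 8 with FGF19. Pck1, Fbp1 and Pcx had peaks in both lists, G6pc and Pygl had peaks with FGF19 only, and 0 of the 8 had a peak with vehicle only. Pklr, Gys2 and Ppargc1a had no peak within 5 kb in either list. Among all 22363 protein-coding genes, 7.93% had a vehicle peak within the same distance, 16.3% had an FGF19 peak, 4.31% had both, 12.0% had FGF19 peaks only and 3.62% had vehicle peaks only. With 8 genes, named with results of these data in view, these counts describe the set and were not tested. The genes were also longer than most, with a median gene length of 32104 bp against 15421 bp for all coding genes, and the part that length played in the counts was not tested. A gene with peaks in a single list passed the authors' q-value cutoff of 0.05 there, and signal below the cutoff in the other library was not analysed here.

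**Figure D1:**
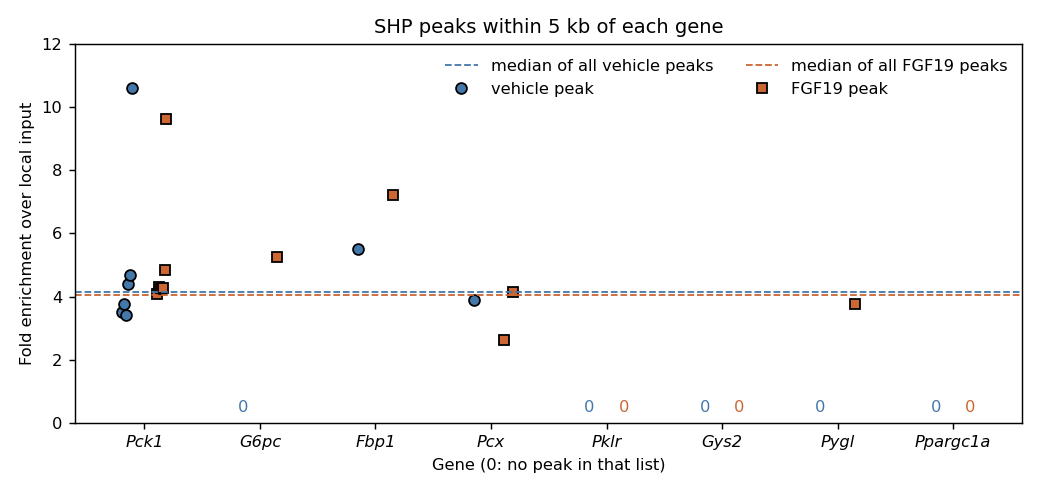
Fold enrichment over local input (vertical axis, linear) of every SHP peak within 5 kb of the 8 genes (horizontal axis). Circles are vehicle peaks, squares are FGF19 peaks, dashed lines are the medians of all peaks of each list (4.14 and 4.05), and a 0 marks a gene without a peak in that list. The highest points are the last Pck1 peaks at 10.6 with vehicle and 9.61 with FGF19, and Pklr, Gys2 and Ppargc1a have none.

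Pck1 encodes the cytosolic phosphoenolpyruvate carboxykinase, the enzyme that commits carbon to gluconeogenesis. It lies on chromosome 2 from 172978549 to 172984774 on the plus strand, is 6226 bp long and has 10 exons. Each list placed 6 separate SHP peaks inside it. Few genes in these lists had as many, since 91.2% of the coding genes with a vehicle peak and 89.0% of those with an FGF19 peak had 1. Only 6 of 1774 coding gene records with a vehicle peak had 6 or more, and 11 of 3652 with an FGF19 peak did. Alb and Trf, which encode the plasma proteins albumin and transferrin, and Cyp2e1, which encodes a liver cytochrome P450, were among them in both lists.

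The strongest Pck1 peak covered its last exon, exon 10, in both libraries. With vehicle it ran from 172983675 to 172984686, with its summit in the coding part of the exon 5551 bp from the gene start. Its pileup was 56 tags (95% interval 42.3 to 72.7) and its fold enrichment 10.6, rank 40 of the vehicle list. Intervals for pileups are exact Poisson intervals that cover counting error only, not differences between mice or between ChIP experiments. With FGF19 it ran from 172983585 to 172984675, with its summit 5894 bp from the gene start in the 3′ UTR of the same exon. There the pileup was 61 tags (46.7 to 78.4) and the fold enrichment 9.61, rank 41 of the FGF19 list. The exon 10 peak therefore stood among the top few percent of both lists, with 97.3% of vehicle peaks and 98.7% of FGF19 peaks below it in fold enrichment.

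The other Pck1 peaks were lower, with fold enrichments on both sides of the vehicle median and above the FGF19 median. Toward the 5′ end, the vehicle peak from 172978845 to 172979084 had its summit in the coding part of exon 2, a pileup of 26 and a fold enrichment of 3.51, and its FGF19 counterpart, from 172978883 to 172979175, had a pileup of 32 and a fold enrichment of 4.09. Exon 3 carried a peak with FGF19 only, from 172979358 to 172979836, with a pileup of 31 and a fold enrichment of 4.29. This was the single Pck1 peak not overlapped by the other list. In exons 4 and 5 the vehicle library gave separate peaks, from 172980075 to 172980407 and from 172980617 to 172980856, with pileups of 21 and 22 and fold enrichments of 3.77 and 3.41. The FGF19 library joined that stretch into a single peak from 172980284 to 172980975, with its summit in exon 5, a pileup of 29 and a fold enrichment of 4.25. Farther on, the vehicle summit was in exon 6 with a pileup of 23 and a fold enrichment of 4.41, while the FGF19 summit lay in intron 6 with a pileup of 33 and a fold enrichment of 4.27. At exon 7 the peaks nearly coincided, with pileups of 24 and 31 and fold enrichments of 4.67 with vehicle and 4.86 with FGF19. Both libraries thus had a run of peaks with fold enrichments between 3.41 and 4.86 and a single higher peak at the 3′ end.

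Peaks covered more of the exons than of the introns of Pck1, and none covered its start. Of its exonic bases, 76.9% lay under vehicle peaks and 78.8% under FGF19 peaks, against 16.2% and 36.8% of its intronic bases, while exons made up 42.7% of the gene. Peaks touched 7 of the 10 exons with vehicle and 9 of 10 with FGF19, and exon 10 itself, of 1082 bp, was covered over 91.9% and 90.9% of its length. No peak of either list covered the Pck1 gene start, the region of the promoter whose response to cAMP, glucocorticoid and insulin is best known. The nearest edge was 296 bp downstream of it with vehicle and 334 bp with FGF19. Coverage of exons above introns was also seen at other liver genes with several peaks. Vehicle peaks covered 73.0% of exonic and 5.79% of intronic bases at Ahsg, which encodes the plasma protein fetuin A, and 82.9% and 19.1% at Alb.

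**Figure D2:**
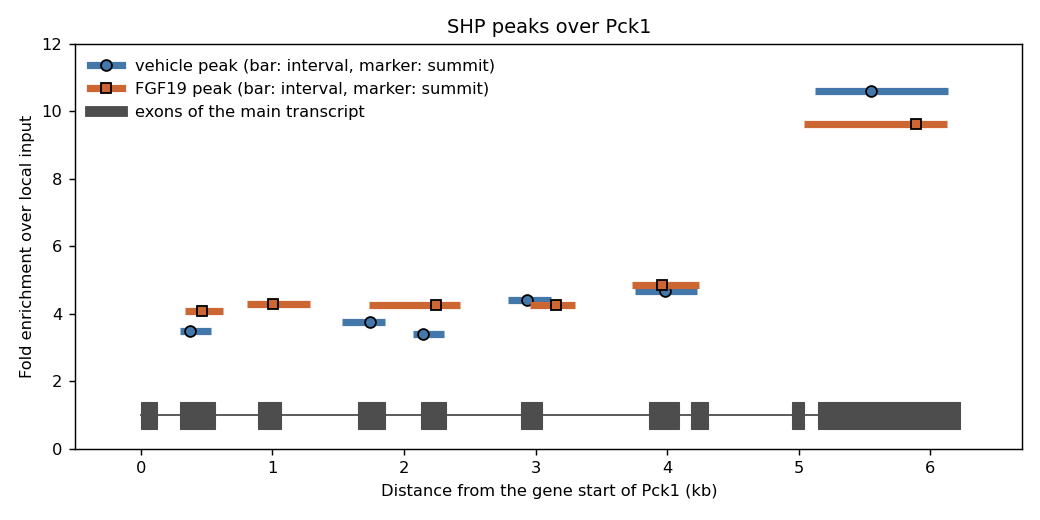
Position of every SHP peak along Pck1, in kb from the gene start (horizontal axis), against its fold enrichment over local input (vertical axis, linear). Coloured bars are peak intervals, circles (vehicle) and squares (FGF19) are summits, and grey boxes are exons. Each library has a run of low peaks over exons 2 to 7 and 1 high peak over exon 10, and no bar reaches the gene start at 0.

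Fbp1, which encodes the liver fructose-1,6-bisphosphatase, had 1 peak in each list, also at its 3′ end. The gene lies on chromosome 13 from 62966113 to 62989642 on the minus strand, with 7 exons over 23530 bp. With vehicle the peak ran from 62966214 to 62966488, with a pileup of 19 tags and a fold enrichment of 5.51. With FGF19 it ran from 62966218 to 62966522, with a pileup of 24 tags and a fold enrichment of 7.22. The intervals were nearly the same and both summits lay in the coding part of exon 7, the last exon, 32 bp apart and more than 23 kb from the gene start. By fold enrichment the peak held rank 262 with vehicle and rank 89 with FGF19. The nearest annotated transcript start, that of the muscle isozyme gene Fbp2, was 6642 bp from the vehicle summit.

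G6pc, which encodes the catalytic subunit of glucose-6-phosphatase, had no vehicle peak and a single FGF19 peak, again in the last exon. The gene lies on chromosome 11 from 101228875 to 101239217 on the plus strand and has 5 exons. The peak ran from 101237806 to 101238210, with its summit in the coding part of exon 5 and 9113 bp from the gene start. Its fold enrichment of 5.24 exceeded that of 85.6% of FGF19 peaks, but its pileup of 18 tags (10.7 to 28.4) exceeded that of only 13.6%. Its local input background was 2.62 tags, below the list median of 5.25. The nearest vehicle peak was 89736 bp from the gene.

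Pcx, which encodes pyruvate carboxylase, was the single member with a peak over its gene start, and its peaks there did not overlap between the lists. The gene lies on chromosome 19 from 4510472 to 4621752 on the plus strand. The vehicle peak, from 4510439 to 4510902, covered the gene start and had its summit in intron 1, 279 bp downstream, with a pileup of 27 tags and a fold enrichment of 3.88. The FGF19 peak, from 4510002 to 4510402, lay wholly upstream, with its summit 310 bp before the gene start, a pileup of 30 tags and a fold enrichment of 2.62. A gap of 36 bp separated the intervals, and the summits were 589 bp apart. The FGF19 peak was among the weakest of its list by fold enrichment, with 2.66% of peaks below it, and its input background of 10.8 tags was above the list median of 5.25. A further FGF19 peak, from 4625367 to 4625662 with a pileup of 32 and a fold enrichment of 4.14, lay beyond the 3′ end of Pcx. Its summit was 36 bp from a transcript start of the neighbouring gene Rce1, which encodes a protease that processes prenylated proteins, and inside that gene.

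Of the glycogen enzymes, Pygl, the liver glycogen phosphorylase, had a peak with FGF19 and none with vehicle, and Gys2, the liver glycogen synthase, had none. The Pygl gene lies on chromosome 12 from 71291798 to 71332475 on the minus strand. Its FGF19 peak ran from 71328430 to 71328706 with a pileup of 18 tags and a fold enrichment of 3.77, below the list median. The summit was 3821 bp from the annotated gene start but 16 bp from the start of the main coding transcript, in the 5′ UTR. Gys2, on chromosome 6 from 142371133 to 142421629, had its nearest peaks 736227 bp away with vehicle, at Slco1b2, and 35048 bp away with FGF19, at Recql.

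**Figure D3:**
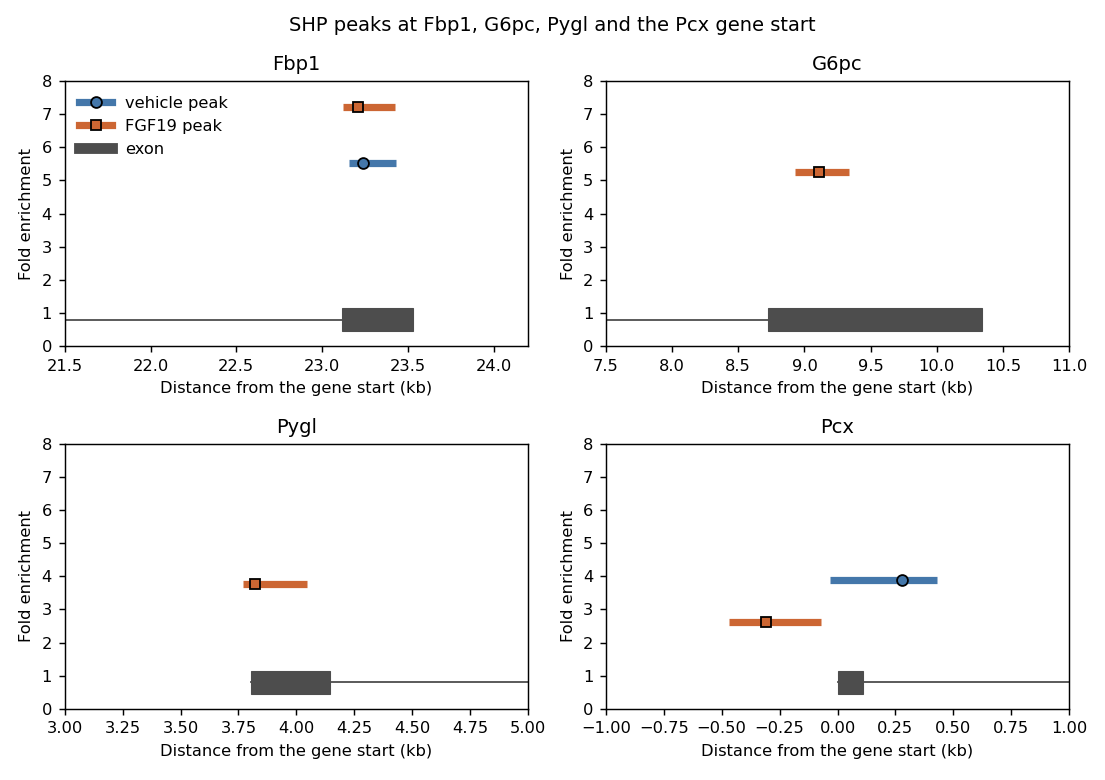
SHP peaks at Fbp1, G6pc, Pygl and the start of Pcx, with distance from the gene start in kb (horizontal axes) against fold enrichment (vertical axes, linear). Bars are intervals, circles (vehicle) and squares (FGF19) are summits, and grey boxes are exons of the main transcript. The Fbp1 and G6pc peaks sit in the last exon, the Pygl peak at the start of the main transcript, and the Pcx peaks on either side of the gene start.

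Pklr and Ppargc1a had no SHP peak in either list. Pklr, on chromosome 3 from 88940064 to 88950706, had its nearest vehicle peak 638372 bp away, at Lmna, and its nearest FGF19 peak 17975 bp away, at Clk2. The nearest peaks to Ppargc1a, on chromosome 5 from 51845488 to 51958964, were at Dhx15, 622542 bp away with vehicle and 367832 bp away with FGF19. For these genes, and for Gys2, nothing can be said of SHP binding below the authors' cutoff.

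Most member summits lay in exons. Of the summits, 7 of 8 with vehicle and 9 of 11 with FGF19 fell in an annotated exon, against 51.1% and 50.6% of all peaks. A smaller number, 2 of 8 and 5 of 11, were within 1 kb of a transcript start, against 72.7% and 81.8% of all peaks. Summits that were in an exon and more than 1 kb from every transcript start numbered 6 of 8 and 5 of 11, against 17.5% and 8.68%. Last coding exons away from transcript starts held 2 vehicle summits (Pck1, Fbp1) and 3 FGF19 summits (Pck1, Fbp1, G6pc), against 11.1% and 5.74% of all peaks, or 12.5% and 6.72% when distance is ignored. Most of these summits belong to a single gene. Without Pck1, exonic summits numbered 1 of 2 with vehicle and 4 of 5 with FGF19, of which 1 was in an exon of Rce1. Summits within 1 kb of a transcript start were then 1 of 2 with vehicle and 3 of 5 with FGF19. The distance from transcript starts thus rested mostly on Pck1 in both lists.

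The overlap between the lists was likewise carried by Pck1 and Fbp1. An FGF19 peak overlapped 7 of the 8 vehicle peaks, against 45.5% of all vehicle peaks, and a vehicle peak overlapped 6 of the 11 FGF19 peaks, against 21.8% of all FGF19 peaks. The overlapping peaks formed 7 pairs, 6 at Pck1 and 1 at Fbp1, in which the FGF19 peak over Pck1 exons 4 and 5 was paired with both vehicle peaks there. Summits within a pair lay 16 to 497 bp apart.

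At these 7 pairs the ChIP pileup was higher with FGF19, while the fold enrichment was higher in some and lower in others. Raw pileup was higher with FGF19 in 7 of 7 pairs, although the FGF19 ChIP library was the smaller. The share of all common regions with a higher raw pileup was not computed, and the median pileup of all peaks was 24 in both lists. Per 10000000 ChIP tags, the exon 10 peak of Pck1 went from 36.2 to 45.4, the exon 7 peak from 15.5 to 23.1, the exon 2 peak from 16.8 to 23.8, and the Fbp1 peak from 12.3 to 17.9. The ratio of FGF19 to vehicle on this scale was higher than 1 in 7 of 7 pairs, against 73.6% of the 678 regions common to the lists, with a median log2 ratio of 0.57 against 0.20 for all regions. No single pair was beyond its counting error. The ratio was 1.25 (95% interval 0.858 to 1.84) for the Pck1 exon 10 peak, 1.65 (0.941 to 2.95) for the exon 6 pair and 1.45 (0.763 to 2.81) for Fbp1, and the interval reached below 1 in all 7. The longer tag extension with FGF19 also raises a pileup, and its part was not tested.

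Fold enrichment divides the pileup by the local input, and on that scale the picture differed from pair to pair. It was higher with FGF19 in 5 of 7 pairs, against 48.5% of all common regions, with a median log2 ratio of 0.17 against -0.02. Pairs and merged regions are unlike units here too. The log2 ratio was 0.39 at Fbp1 and 0.22 at Pck1 exon 2, and it was -0.05 at the exon 6 pair and -0.14 at exon 10, where the sign was opposite to that of the pileup. Per 10000000 ChIP tags the local input background was higher with FGF19 in 7 of 7 pairs. It was 2.83 tags with vehicle and 4.05 with FGF19 at exon 10, and 2.87 and 5.18 at the exon 6 pair. At Fbp1 it was 1.70 and 1.83. Before this scaling it was lower with FGF19 in 1 pair, Fbp1, at 2.63 with vehicle and 2.46 with FGF19. Over all peaks the median unscaled background was also higher with FGF19, at 5.25 against 4.84 with vehicle, although the FGF19 ChIP library was the smaller. A higher background is thus not particular to these pairs, and its share among all common regions was not computed. Tags were extended farther with FGF19, and the part of this in the background was not tested. At Fbp1, as at 4 of the Pck1 pairs, pileup and fold enrichment were both higher with FGF19. With 1 library per group, whether either scale differs between treatments could not be tested.

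**Figure D4:**
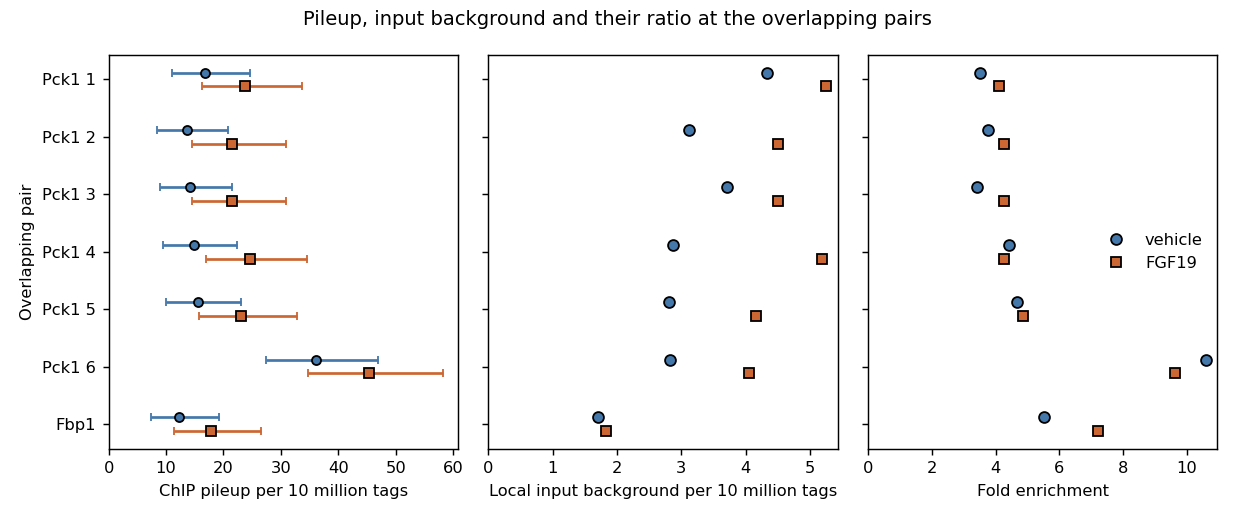
The 7 overlapping pairs of peaks (rows, numbered along Pck1, with Fbp1 last) by ChIP pileup per 10000000 tags with exact Poisson 95% intervals (left), local input background per 10000000 ChIP tags (middle) and fold enrichment (right), all on linear axes. Circles are vehicle and squares FGF19. Pileup is higher with FGF19 in 7 of 7 pairs with overlapping intervals, background in 7 of 7, and fold enrichment in 5 of 7.

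The GC content at most member peaks was below the list medians. Within 100 bp of the summit the median GC content was 56.2% at the member peaks with vehicle and 57.2% with FGF19, against 63.7% and 68.2% for all peaks. The Pck1 exon 10 summit with FGF19 had the lowest value, 43.8%. The Pygl peak (70.1%), the Pcx vehicle peak (73.1%) and the peak at Rce1 (74.1%) had GC contents above their list medians. The Pcx upstream peak (61.2%) and the Pck1 exon 2 peaks (55.7% with vehicle and 58.2% with FGF19) were below them, although they too lay within 1 kb of a transcript start.

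Motifs were searched as exact letters on both strands within 100 bp of each summit, and none of the sequences searched contains another. The nuclear receptor core AGGTCA was found at 2 of 8 vehicle and 2 of 11 FGF19 member peaks, all in Pck1, against 9.08% and 7.13% of all peaks in the lists. Its exon 2 copy, printed above, lay 11 bp downstream of the vehicle summit and 83 bp upstream of the FGF19 summit, and the copy near the exon 10 vehicle summit lay 26 bp upstream of it. The FGF19 summit in exon 10 had a separate copy 48 bp upstream. The forkhead sequence TGTTTAC, of the kind bound by FOXO1 and FOXA2, occurred in Pck1 exon 7 near both summits, against 1.79% of all vehicle and 1.08% of all FGF19 peaks. The same letters of exon 7 gave the match in both libraries, so it is a single occurrence.

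Other motifs were found at few member peaks or at none. The NF-Y sequence ATTGGC, read as GCCAAT on the gene's strand, was near the Pcx upstream summit and at the Pck1 intron 6 peak, both with FGF19, against 11.1% of all FGF19 peaks. A C/EBP sequence, TTGCNNAA, lay 30 bp from the G6pc summit, against 4.03% of FGF19 peaks. TGACGTCA, the palindromic cAMP response element, was near the FGF19 summit at Rce1 and at no other member peak, against 1.87%. The YY1 core AANATGGC, the SP1 sequence CCCCGCCCC and the HNF-4 sequence CAAAGTCCA were found near 0 member summits, against 7.54%, 14.8% and 0.0634% of all FGF19 peaks. These matches describe letters in a window. The exonic matches printed above lie in protein-coding sequence, while the AGGTCA copy near the exon 10 FGF19 summit lies in the 3′ UTR.

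Among other genes the nearest in paired fold enrichment to Fbp1 (5.51 with vehicle and 7.22 with FGF19) were Rev3l, Serpinf2 and Gm4963, at distances of 0.05, 0.07 and 0.08 log2 units over the 2 libraries. For Pck1 they were Mup3, Gm16517 and Madcam1, each at 0.17, of which Gm16517 and Madcam1 share the same peaks. The comparison covered 963 other coding genes with peaks in both lists and rests on 2 values a gene.

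A wider set of 71 genes of glucose and glycogen metabolism placed the 8 genes in their pathway. Of these 71, 12 (16.9%) had a vehicle peak and 25 (35.2%) an FGF19 peak, against 7.93% and 16.3% of all coding genes. In both lists there were 10, in the FGF19 list only 15 and in the vehicle list only 2, against 4.31%, 12.0% and 3.62%. These genes were chosen with results in view, and the differences were not tested. A transcript start lay within 1 kb of 11 of 15 vehicle summits and 27 of 37 FGF19 summits, against 72.7% and 81.8% of all peaks. For 2 of these vehicle and 5 of these FGF19 summits, the nearest start was that of another gene. Among 19 enzymes and transporters of gluconeogenesis and its shared steps, 2 had vehicle peaks and 5 had FGF19 peaks. Mdh2, the mitochondrial malate dehydrogenase, had a peak at its start with fold enrichments of 5.30 and 3.78. Got2, the mitochondrial aspartate aminotransferase, Gapdh and the enolase gene Eno1 had FGF19 peaks only, at 4.77, 4.25 and 3.89, and Ldha had a vehicle peak only, at 4.35 in its last exon.

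Of 14 genes of glycolysis and pyruvate use, 2 had peaks, in both lists, against 4.31% of all coding genes with peaks in both. These were Pfkl, the liver phosphofructokinase (3.93 with vehicle and 3.77 with FGF19, in intron 1), and Khk, the fructokinase, with a vehicle peak at its start (3.46) and a separate FGF19 peak inside the gene (3.19). A further FGF19 peak (4.14), upstream of Khk, lay at its neighbour Emilin1. Of 18 glycogen genes, 1 had vehicle peaks and 5 had FGF19 peaks, against 7.93% and 16.3% of all coding genes. FGF19 peaks alone were found at Gsk3b (4.64), the kinase that restrains glycogen synthase, at Gaa (3.89), the lysosomal glucosidase, at Pgm2 (3.88) and at the branching enzyme gene Gbe1 (3.69). The peaks assigned to Gys1, the muscle glycogen synthase, lay outside its gene body, at its neighbours.

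Of 20 regulators, 7 had vehicle peaks and 13 had FGF19 peaks, to be read against the same 7.93% and 16.3%. Sik1, which encodes a kinase that restrains CREB coactivators, had a peak 182 bp upstream of its start with vehicle and 156 bp upstream with FGF19. Its pileup was 21 and 34 tags, and its fold enrichment 5.68 and 9.15. Sirt1, which encodes a deacetylase of PGC-1α and FOXO1, had 3 FGF19 peaks and no vehicle peak. All 3 lay in coding exons 42952 to 60952 bp from the gene start, with fold enrichments of 7.45, 6.89 and 4.99, though the highest was 280 bp from the start of a shorter coding transcript. Nr3c1, the glucocorticoid receptor gene, had a pair of overlapping peaks upstream of its start, with fold enrichments of 6.29 with vehicle and 4.22 with FGF19. Another pair lay inside Nr3c1, at 3.86 and 4.29, with summits 105 and 144 bp from the start of a coding transcript of this gene. Cebpa, which encodes a liver transcription factor, had an overlapping pair in its single exon at 3.43 with vehicle and 5.70 with FGF19, and a further FGF19 peak at 3.01. Hnf4a, which encodes another, had an overlapping pair in its 3′ UTR at 3.93 and 3.53, and its highest peak, at 5.35 and 11046 bp from the gene start, was in the vehicle list only. Foxo1, Ppargc1b and Gcgr, the glucagon receptor gene, had no peak in either list.

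**Figure D5:**
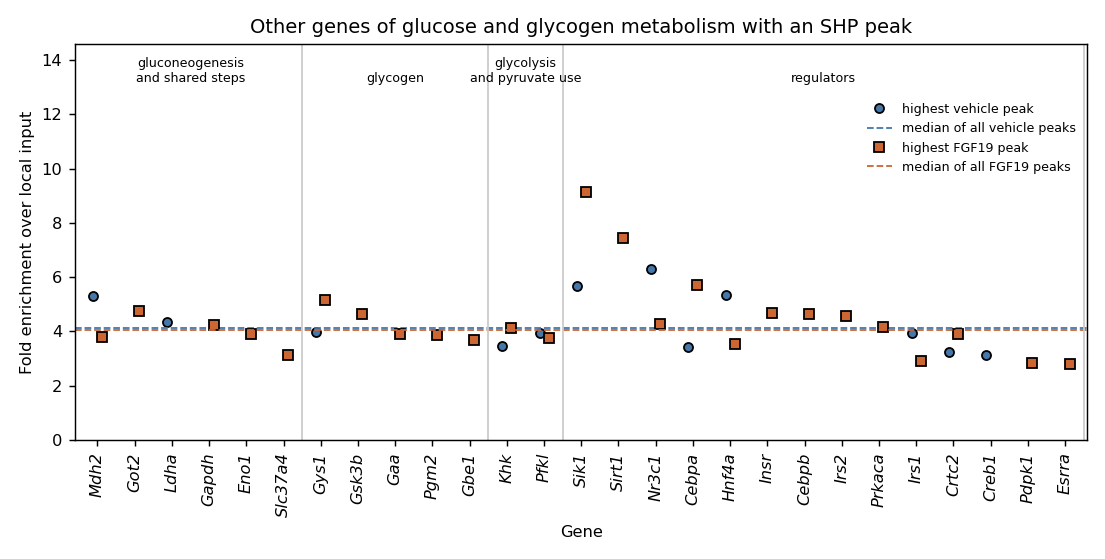
Highest fold enrichment over local input (vertical axis, linear) at each of the 27 other genes of glucose and glycogen metabolism that had a peak, grouped by list (horizontal axis). Circles are vehicle, squares are FGF19, and dashed lines are the medians of all peaks (4.14 and 4.05). Sik1 and Sirt1 stand highest at 9.15 and 7.45 with FGF19, and most of the others lie near the medians.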

How the data were processed

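SHP ChIP-seq of mouse liver after vehicle or FGF19 was analysed from the peak lists. The submitters' processing notes name CASAVA 1.8.2, Bowtie 1.0.0, MACS2 2.0.10.20130501 and mm9, and reads were aligned with at most 2 mismatches per the study's methods. Each group's ChIP library was called against its own input, so peaks come from 1 pooled library a group. The deposited pileup is a signal of extended ChIP tags at the summit. The deposited fold enrichment is a ratio of pileup to local input, which the authors' peak caller made after scaling the larger library to the smaller. The authors' list also gives each peak's p-value and q-value as -log10, and its q-value cutoff was 0.05.

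Peaks with at least 1 bp within 5 kb of a gene body in GENCODE M1 were assigned to the gene. Background was computed as (pileup + 1) / fold enrichment - 1. Gene features were read from the longest coding transcript. A last coding exon was the last exon of any coding transcript with more than 1 exon, and any annotated exon counted as exonic. The ChIP libraries held 15473647 tags with vehicle and 13444078 with FGF19, which limits single pileups to the exact Poisson 95% intervals given. No p-value is given, since each group has 1 library.

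The members and gene lists were chosen with earlier results of these data known. Named genes were all 8 members, at most 5 genes with the highest fold enrichment in each other list, and the 3 genes nearest in paired log2 fold enrichment to each member with overlapping peaks. A few genes were taken out of these lists and enter none of their counts. Genes without a peak and genes near a member peak were also named. Alternatives changed the window, the q-value cutoff, the list length, the overlap rule, the measure and the motif window. Assignment and overlap were tested on simulated data and recovered in 8 of 8 checks. Scripts ran in Python 3.11.15 with matplotlib 3.10.9, scipy 1.17.1, pandas 2.3.3 and numpy 2.4.6. Reads, gene expression and signal below the cutoff were not analysed here.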

Additional observations from a re-analysis of the deposited data

How the results depend on the processing

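With 1 library a group, no replicate could be left out, and no significance threshold applies to any count or ratio. No paired analysis was possible because each group has 1 library and no test was made. The number of genes with vehicle peaks kept its value of 3 for windows from the gene body alone to 20 kb. With FGF19 it was 4 for the gene body alone, where Pcx had no peak, and 6 at 20 kb. With the FGF19 list cut down by q-value to as many peaks as the vehicle list, 1 gene (G6pc) had an FGF19 peak only. A q-value cutoff of 0.001 left 10 FGF19 peaks at 5 genes. Both settings dropped the FGF19 peak upstream of the Pcx start (-log10 q 2.83), so Pcx then kept an FGF19 peak only at Rce1. Counting only summits within 1 kb of a transcript start of the gene gave 3 genes with FGF19 peaks, 1 with FGF19 peaks only, 2 vehicle and 4 FGF19 peaks, of which 1 and 3 were exonic, and 1 overlapping pair, in which the fold enrichment was higher with FGF19 (1 of 1). Overlapping pairs numbered 4 when summits had to be at most 100 bp apart, and 4 when at least 50% of each peak had to be shared, of which 3 were higher with FGF19. Without Pck1, exonic summits numbered 1 with vehicle and 4 with FGF19, and summits within 1 kb of a transcript start 1 and 3. The Pck1 omission and the omission of peaks near the start of another gene, which left 10 FGF19 peaks and 5 genes, were chosen after seeing the data. Pileup per 10000000 tags in place of fold enrichment turned the log2 ratio of the Pck1 exon 6 pair from -0.05 to 0.72 and that of exon 10 from -0.14 to 0.33. Searching whole peaks in place of summits gave AANATGGC in 1 vehicle and 1 FGF19 peak, CCCCGCCCC in 1 FGF19 peak, ATTGGC in 1 vehicle peak, TTGCNNAA in 1 vehicle and 3 FGF19 peaks, and TGACGTCA in 0 FGF19 peaks, since its copy near Rce1 runs past the end of the peak interval. Of the values recomputed, 88 stayed the same, 23 moved farther and 2 changed sign. Counts were the same when within 1.5 times their main value, and log2 ratios when they kept their sign and differed by less than their counting error. Some of the 88 could not change, such as the vehicle counts when only the FGF19 list was shortened.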
